A study of Mus musculus with 6 samples.

Results

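Psat1, Shmt2 and Aldh1l2, which encode one enzyme of serine synthesis and a pair of mitochondrial folate enzymes, were followed in the liver of wild-type and Mul1-deficient mice on a high-fat diet (HFD). They were chosen by gene symbol and are 3 of the 3542 genes in the deposited table. Liver mRNA was sequenced from 3 Mul1(+/+) and 3 Mul1(-/-) animals, 6 libraries in all, to profile gene expression after deletion of Mul1, which encodes an E3 ubiquitin ligase of the outer mitochondrial membrane. Both groups were fed, from 8 weeks of age, a diet with 60% of its calories from fat for 16 weeks, so the diet is shared and was not compared. The deletion is present in the whole body and is not limited to hepatocytes. The sex of the animal behind each library is not given in the sources used here.

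Hepatocytes make serine from the glycolytic intermediate 3-phosphoglycerate through a dehydrogenase (Phgdh), an aminotransferase (Psat1) and a phosphatase (Psph). In mitochondria, Shmt2 moves a carbon unit from serine to tetrahydrofolate and leaves glycine, Mthfd2 or Mthfd2l oxidise the folate-bound unit, and the formyl group either leaves as formate through Mthfd1l or is oxidised to CO2 by Aldh1l2, a step that makes NADPH. In several tissues these genes are known targets of ATF4, the transcription factor of the integrated stress response, which mitochondrial stress can switch on. The liver also takes up glycine and serine from blood and breaks glycine down through the mitochondrial cleavage system.

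The promoters of Psat1 and Shmt2 are shown because both genes are known ATF4 targets, and the letters of a C/EBP-ATF response element were looked for in them. Each line gives 250 bases before the RefSeq start site on GRCm38.p6, 5′ to 3′. The Psat1 window lies at chr19:15925060-15925309 on the minus strand, and capitals mark CCAAT. The Shmt2 window lies at chr10:127522445-127522694 on the minus strand, and capitals mark GCGCATGCGC, which holds the core GCATGCGC on both strands, overlapping itself.
Psat1: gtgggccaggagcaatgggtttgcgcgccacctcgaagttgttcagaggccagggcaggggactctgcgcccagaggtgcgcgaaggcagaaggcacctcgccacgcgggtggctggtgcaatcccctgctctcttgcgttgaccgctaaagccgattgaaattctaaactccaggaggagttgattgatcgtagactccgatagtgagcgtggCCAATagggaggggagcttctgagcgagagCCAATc
Shmt2: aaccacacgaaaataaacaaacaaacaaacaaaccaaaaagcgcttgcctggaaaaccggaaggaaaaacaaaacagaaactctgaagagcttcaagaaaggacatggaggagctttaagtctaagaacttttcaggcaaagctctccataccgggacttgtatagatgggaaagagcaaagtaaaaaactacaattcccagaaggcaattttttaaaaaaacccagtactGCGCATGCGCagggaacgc
The core TGATGNAA of the C/EBP-ATF response element was searched on both strands of the 250 bases before the start. It was in neither window, nor in the window of a second Psat1 start. The E-box CACGTG was in none of them either. Both RefSeq starts of Psat1 (15925059 and 15924622) lie inside the gene as annotated in GENCODE M21. The 5′ end of that annotation, at 15947337, was not searched. Of 32851 mouse windows of this length, 3.45% held the response element core and 6.02% the E-box. CCAAT (33.9% of windows) and the NRF1 core (2.26%) were chosen for display after these sequences had been seen. No promoter is shown for Aldh1l2.

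The unit is the normalized count, a read count after the authors' division by the factor of its library. Reads on the genes of the table numbered 11932163 to 15385822 per library, which is part of each library. A single read was worth 0.817 to 0.886 normalized counts in the Mul1(+/+) libraries and 0.878 to 1.46 in the Mul1(-/-) libraries. Genes entered the table only when the authors' own comparison of these libraries gave them an adjusted p of 0.05 or less and a log2 fold change of 1 or more in either direction, so a difference in a member is a condition of its being listed and not an independent finding. The groups were compared again with limma on log2(normalized count + 1), and a gene passed when its adjusted p over the table was under 0.01 and its absolute log2 fold change above 1. Mul1 itself had normalized counts of 3172, 3232 and 3423 in Mul1(+/+) and of 1037, 965 and 1753 in Mul1(-/-), so that transcript from the locus was still counted at 38.2% of the control mean. The Mul1(+/+) libraries differed from each other in genes that differ by sex in mouse liver. Replicate 1 was highest in the female-biased and lowest in the male-biased sum, and replicate 3 was the reverse. The summed normalized counts of 3 female-biased genes were 13869, 7588 and 1492 (replicates 1 to 3). Those of 4 male-biased genes were 118171, 358797 and 462867. Cyp2b9 (12308, 7008 and 1424) made up most of the former and Mup20 (71105.5, 281086 and 386908) most of the latter. In Mul1(-/-) the female-biased sums were 1758, 4316 and 5369 and the male-biased sums 598716, 806887 and 501272. There Cyp2a4 (967, 3766 and 4634) made up most of the female-biased sum, with Cyp2b9 at 779, 535 and 713. The female-biased sums of the groups thus rest on different genes. Sex-biased genes also differed by genotype, in both directions within each list. Cyp2a4 (female-biased) rose by 5.26 on the log2 scale (adjusted p = 0.00179 from limma), while Cyp2b9 (female-biased) and Elovl3 (male-biased) fell, with log2 fold changes of −2.90 and −2.89 (adjusted p = 0.00913 and 0.00701), and the part of sex in the values of the members was not tested. Results for the members are therefore also given without Mul1(+/+) replicate 1.

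Psat1 rose in Mul1(-/-) liver. Psat1 (ENSMUSG00000024640) is a minus-strand gene at chr19:15904678-15947337 of GRCm38 with 9 exons in the transcript used for its length. Its normalized counts were 37.9, 51.4 and 49 in the Mul1(+/+) libraries (replicates 1 to 3) and 137, 196 and 205 in the Mul1(-/-) libraries. The highest control library lay well below the lowest Mul1(-/-) library. The means were 46.1 ± 7.17 and 179 ± 36.6 (SD, n = 3 each), so Mul1(-/-) stood at 389% of the control. The log2 fold change was 1.93 (standard error 0.39, 95% interval 1.06 to 2.79), with an adjusted p of 0.00697 from limma. It was 1 of 591 genes past the threshold in the upward direction, 16.7% of the table. By size it ranked 751 among the 2012 genes of the table that were higher in Mul1(-/-). The values rest on 45, 58 and 60 reads in the controls and on 94, 160 and 233 reads in Mul1(-/-). Pooled by group these are 163 and 487 reads, and after normalization for depth the ratio was 401%, with an exact 95% interval of 335% to 481% that covers counting error only. With 3 libraries against 3 an exact two-sided permutation test cannot go below 0.1, the value that Psat1 reached.

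The Psat1 call was close to the threshold. Without Mul1(+/+) replicate 1 the log2 fold change was 1.80 with an adjusted p of 0.0308 from limma. Leaving out Mul1(+/+) replicate 2 or 3 or Mul1(-/-) replicate 2 gave adjusted p-values of 0.0240, 0.0255 and 0.0301, all above the threshold, and log2 fold changes of 2.01, 1.98 and 1.85. The call was kept without Mul1(-/-) replicate 1 (adjusted p = 0.00693) and without Mul1(-/-) replicate 3 (adjusted p = 0.00211). Rescaling the libraries by their median ratio over the table lowered the log2 fold change to 1.28 (adjusted p = 0.0201), and rescaling by the table total gave 1.63 (adjusted p = 0.0118). The sign was positive under each of these settings, though leaving out a library could not have turned it, because the groups did not overlap.

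**Figure D1:**
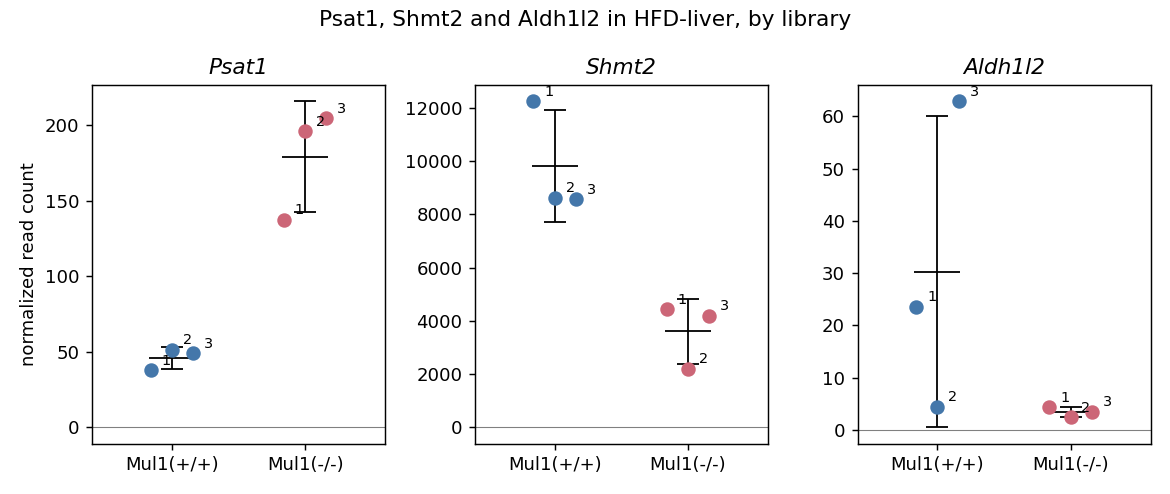
Normalized counts of Psat1, Shmt2 and Aldh1l2 in each of the 6 libraries (points, numbered by replicate, linear axis from 0 in each panel), with the mean and SD of each group of 3 as lines and bars. The Psat1 points of Mul1(-/-) lie at 137 to 205 above all controls, the Shmt2 points at 2200 to 4439 below all controls, and the Aldh1l2 controls spread from 4.43 to 62.9, the lowest next to the Mul1(-/-) points.

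Shmt2, the abundant member, was lower in every Mul1(-/-) library but did not pass the threshold. Shmt2 (ENSMUSG00000025403) is a minus-strand gene at chr10:127517123-127522444 of GRCm38 with 12 exons. Its normalized counts were 12250, 8634 and 8579 in the Mul1(+/+) libraries (replicates 1 to 3) and 4439, 2200 and 4193 in the Mul1(-/-) libraries. The groups did not overlap. The highest control was replicate 1, which also had the highest female-biased and the lowest male-biased sum of its group. The means were 9821 ± 2104 and 3610.5 ± 1228 (SD, n = 3 each), or 36.8% of the control in Mul1(-/-). The log2 fold change was −1.49 (standard error 0.43, 95% interval −2.44 to −0.54), with an adjusted p of 0.0137 from limma and an exact two-sided permutation p of 0.1. Of all genes of the table, 263 passed in the downward direction, 7.43%. Depth was not limiting for Shmt2, with 9749 to 14534 reads in the control libraries and 1796 to 4774 in Mul1(-/-). The pooled ratio after normalization was 37.0%, with an exact 95% counting interval of 36.2% to 37.9%. The spread between animals was therefore far wider than the counting error.

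Whether Shmt2 passed depended on the setting. It passed without Mul1(-/-) replicate 3 (log2 fold change −1.63, adjusted p = 0.00561), with limma's variance trend (adjusted p = 0.00555) and with voom weights (adjusted p = 0.00749). It also passed after the libraries were rescaled by their median ratio (−2.15, adjusted p = 0.00898). Without Mul1(+/+) replicate 1 the log2 fold change was −1.32 and the limma adjusted p was 0.0599. In GENCODE M21, 32 exonic bases of Shmt2 are shared with Ndufa4l2 on the opposite strand. The strand setting of the authors' counting is not given in the sources used here, so reads on those bases cannot be assigned to either gene.

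Aldh1l2 was scarce, and its wild-type libraries disagreed. Aldh1l2 (ENSMUSG00000020256) is a minus-strand gene at chr10:83487450-83534140 of GRCm38 with 23 exons. Its normalized counts were 23.6, 4.43 and 62.9 in the Mul1(+/+) libraries (replicates 1 to 3) and 4.38, 2.45 and 3.51 in the Mul1(-/-) libraries. The lowest control lay just above the highest Mul1(-/-) library, while the other 2 controls were well above it. The means were 30.3 ± 29.8 and 3.45 ± 0.967 (SD, n = 3 each), or 11.4% of the control in Mul1(-/-). The log2 fold change was −2.22 (standard error 0.75, 95% interval −3.89 to −0.55), with an adjusted p of 0.0208 from limma and an exact two-sided permutation p of 0.1. The counts behind it were 28, 5 and 77 reads in the controls and 3, 2 and 4 reads in Mul1(-/-). The pooled ratio after normalization was 11%, with an exact 95% counting interval of 4.89% to 21.6%.

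The size of the Aldh1l2 difference moved with the library left out. It was −1.40 without Mul1(+/+) replicate 3 (adjusted p = 0.0769 from limma) and −3.18 without Mul1(+/+) replicate 2 (adjusted p = 0.0240). Without Mul1(+/+) replicate 1 it was −2.09 (adjusted p = 0.0584). With a pseudocount of 10 in place of 1 it was −1.29 (adjusted p = 0.0261). In GENCODE M21, 1056 exonic bases of Aldh1l2 are shared with D10Wsu102e on the opposite strand, so with the strand of counting unknown these low counts could hold reads of either gene.

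The 3 genes also differed widely in level. Per kilobase of transcript, the normalized count in Mul1(+/+) was 4290 ± 919 for Shmt2, 17.6 ± 2.74 for Psat1 and 5.03 ± 4.94 for Aldh1l2 (SD, n = 3 each). Shmt2 stood above Psat1 and Aldh1l2 in every library. The control ranges of Psat1 (14.5 to 19.6 per kilobase) and Aldh1l2 (0.735 to 10.4 per kilobase) were close but separate. In Mul1(-/-) the same order held, with 1577 ± 537 for Shmt2, 68.5 ± 14.0 for Psat1 and 0.572 ± 0.16 for Aldh1l2 per kilobase.

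Relative to the folate enzymes, Psat1 was higher in each Mul1(-/-) library than in any control. The log2 ratio of Psat1 to Shmt2 was −8.30, −7.37 and −7.42 in Mul1(+/+) and −5.0, −3.48 and −4.35 in Mul1(-/-). The difference of the means was 3.42 (exact two-sided permutation p = 0.1, 0.15 after adjustment over 3 pairs), and it was 3.02 to 3.78 with each library left out. The ratio of Psat1 to Aldh1l2 differed by 4.15 on the log2 scale (exact permutation p = 0.1, adjusted 0.15), from 3.38 to 5.19 with each library left out. Because Psat1 was higher and both folate enzymes lower in every Mul1(-/-) library, these ratios had to separate the groups. Their permutation p of 0.1, and their sign with a library left out, were fixed by that. They add no support beyond the values of the members themselves. Apart from the pseudocount, these ratios do not depend on the scaling of the libraries. Shmt2 and Aldh1l2 were not told apart in the size of their difference. Their log2 ratio was 8.89 ± 1.78 in Mul1(+/+) and 9.62 ± 0.278 in Mul1(-/-) (SD, n = 3 each), a difference of 0.73 (exact permutation p = 0.7, adjusted 0.7), and its sign turned to −0.18 without Mul1(+/+) replicate 3. The smallest p this design allows is 0.1.

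Other genes of serine and folate metabolism were mostly lower in Mul1(-/-) liver where the table held them. Of 87 genes in 9 lists of these pathways, 20 were in the table, the members included. Of these, 3 were higher and 17 lower in Mul1(-/-), with 2 past the threshold upward and 3 downward, and the median log2 fold change was −1.33. Over all genes of the table, 2012 were higher and 1530 lower, 16.7% passed upward and 7.43% downward, and the median was 1.12. Without the members, 2 genes were higher and 15 lower, with a median of −1.25. Table genes of like transcript length were also mostly lower, with values given below. In all 20 genes the groups did not overlap, against 90.3% of the table. Phgdh and Psph, the other enzymes of serine synthesis, and Mthfd2 and Mthfd1l, the other enzymes of the mitochondrial folate route, are not in the table and were not analysed here.

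Mthfd2l was the 1 gene of the mitochondrial folate list on the higher side. This dehydrogenase and cyclohydrolase, which acts between Shmt2 and Aldh1l2, had normalized counts of 117, 182 and 122 in Mul1(+/+) and of 395, 589 and 290 in Mul1(-/-). The groups did not overlap, but its log2 fold change of 1.56 (standard error 0.43) had an adjusted p of 0.0120 from limma and did not pass. Mitochondrial folate enzymes thus numbered 3 of 7 in the table, with 1 higher, 2 lower and none past the threshold by limma. All 3 had an unadjusted p under 0.05 from limma, as did 3416 of the 3542 genes of the table. Against 16.7% of the table past it upward and 7.43% downward, 0 of 3 does not set these enzymes apart.

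Among the enzymes that consume glycine and its methylated forms, Sardh fell. Sardh, the mitochondrial enzyme that oxidises sarcosine to glycine, had normalized counts of 75150, 44913 and 42300 in Mul1(+/+) and of 15513, 10628 and 20446 in Mul1(-/-) (log2 fold change −1.80, standard error 0.43, adjusted p = 0.00921 from limma). Gldc, the decarboxylase of the glycine cleavage system, had means of 9879 ± 1458 and 4739 ± 1663 (SD, n = 3 each) and did not pass (log2 fold change −1.11, adjusted p = 0.0281). Both genes of that list in the table, of 7 listed, were lower.

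The cytosolic folate genes of the table, 3 of 15 listed, were lower. None passed by limma, against 7.43% of the table downward, so 0 of 3 is no result about the list. An unadjusted p under 0.05 from limma was found for 2, and for 3416 of the 3542 genes of the table. Aldh1l1, the cytosolic counterpart of Aldh1l2, had normalized counts of 73046, 30846 and 28728 in Mul1(+/+) and of 23154, 19298 and 20399 in Mul1(-/-). Replicate 1 stood far above the other controls, and the log2 fold change of −0.94 had an adjusted p of 0.0662. The folate transporter Slc46a1 had a log2 fold change of −1.12 (adjusted p = 0.0269), and Atic, which uses formyl-tetrahydrofolate in purine synthesis, of −1.22 (adjusted p = 0.0257).

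Cbs and Slc6a9 fell, and Slc1a5 rose. Cbs joins serine to homocysteine at the start of transsulfuration. Its normalized counts were 34130, 16246 and 29295 in Mul1(+/+) and 5716, 3689 and 9809 in Mul1(-/-) (log2 fold change −2.10, standard error 0.49, adjusted p = 0.00855 from limma). Slc6a9, a glycine transporter, went from 1528 ± 356 to 329.8 ± 222 (SD, n = 3 each; log2 fold change −2.46, adjusted p = 0.00854). Slc1a5 carries glutamine, serine and other neutral amino acids. Its normalized counts were 53.9, 74.4 and 62.1 in Mul1(+/+) and 579, 513 and 165 in Mul1(-/-) (log2 fold change 2.52, standard error 0.52, adjusted p = 0.00701), so Mul1(-/-) replicate 3 was far below the other 2 yet above every control. The remaining 8 genes had log2 fold changes between −1.67 and −1.14, and none passed by limma. They were listed under methionine cycle and methyl transfer (Ahcyl2, Mtr, Chdh, Aldh7a1), serine and glycine breakdown (Srr), transport (Slc38a4) and lipids (Ptdss1, Serinc2). Each had an adjusted p under 0.05 from limma. So did 3380 of the 3542 genes of the table, with an absolute log2 fold change above 1. The count of 5 list genes past the threshold fell to 0 without Mul1(+/+) replicate 1, 2 or 3 or without Mul1(-/-) replicate 2, with 14, 18, 14 and 16 genes at an unadjusted p under 0.05. It was 16 without Mul1(-/-) replicate 3 and 3 without Mul1(-/-) replicate 1. Over the table, 854 of 3542 genes passed with all libraries. At an unadjusted p under 0.05 there were 2471, 3039, 2514 and 2740 table genes without Mul1(+/+) replicate 1, 2 or 3 or Mul1(-/-) replicate 2. In those fits the table count past the threshold was 25, 13, 46 and 10. It was 2673 without Mul1(-/-) replicate 3 and 631 without Mul1(-/-) replicate 1, so the list count moved with the table. All 20 signs were kept under 3 other scalings of the libraries, which moved the median over the table by −0.66, −0.30 and 0.04 on the log2 scale.

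**Figure D2:**
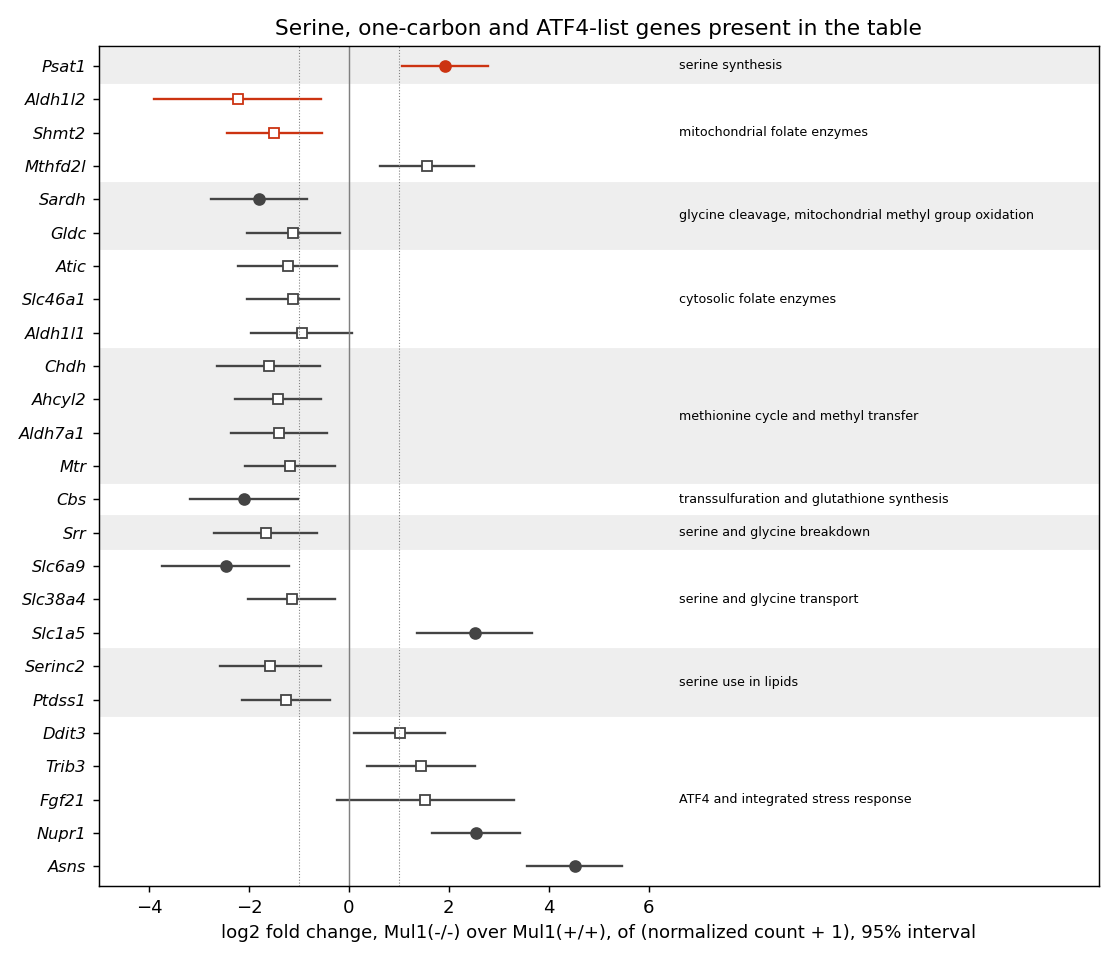
Log2 fold change (Mul1(-/-) minus Mul1(+/+), log2(normalized count + 1)) of the 20 serine and one-carbon genes of the table and of 5 ATF4 list genes, with 95% intervals from limma, grouped by list, filled where the threshold was passed, red for the members and with dotted lines at 1 and −1. Psat1, Mthfd2l and Slc1a5 are the 3 on the higher side among the 20 genes, and all 5 ATF4 list genes are above 0, with Asns at 4.52.

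Genes of the integrated stress response were higher where they were listed. Of 21 genes in an ATF4 list, 5 were in the table, all higher in Mul1(-/-), and 2 passed the threshold. Over the table, 2012 of 3542 genes were higher and 16.7% passed upward. Asns, the asparagine synthetase and a textbook ATF4 target, rose from normalized counts of 16.9, 22.1 and 40.0 in Mul1(+/+) to 545, 567 and 660.5 in Mul1(-/-) (log2 fold change 4.52, standard error 0.43, adjusted p = 0.000317 from limma). Nupr1, a stress-induced chromatin protein, rose from 44.0 ± 8.70 to 264 ± 65.8 (SD, n = 3 each; log2 fold change 2.54, adjusted p = 0.00433). Ddit3, Trib3 and Fgf21 had log2 fold changes of 1.02, 1.45 and 1.53 and adjusted p-values of 0.0352, 0.0205 and 0.0841, and the Fgf21 groups overlapped. Psat1 rose beside these genes, whereas Shmt2 and Aldh1l2, also known as ATF4 targets, had values on the opposite side. ATF4 activity was not measured.

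**Figure D3:**
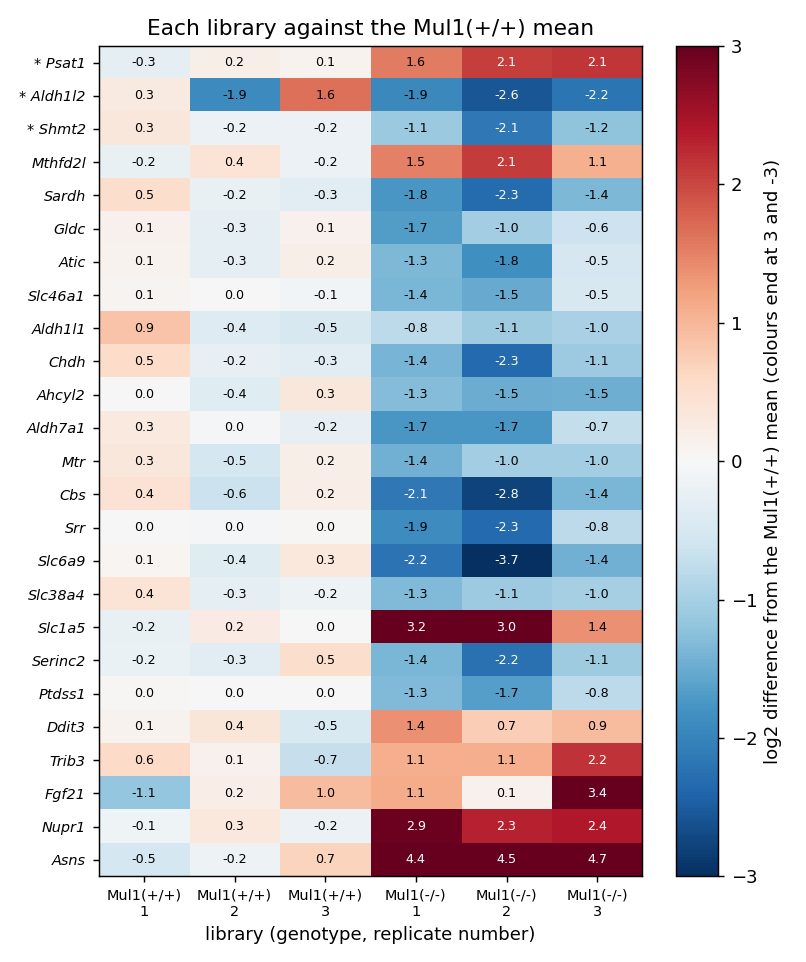
Heatmap of the difference of each of the 6 libraries (columns) from the Mul1(+/+) mean, in log2(normalized count + 1), for the 20 serine and one-carbon genes and the 5 ATF4 list genes of the table (rows, members starred), with colours that end at 3 and −3. Psat1 lies at 1.57 to 2.14 in Mul1(-/-), Shmt2 at −2.14 to −1.12 and Aldh1l2 at −2.57 to −1.93, while Aldh1l2 in the controls runs from −1.91 to 1.64.

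The response element core was also looked for in the promoters of the other list genes. It was in the windows of Asns, Fgf21 and Nupr1, 3 of 5 ATF4 list genes, and in 0 of 16 serine and one-carbon genes with an entry, Psat1 and Shmt2 among them. The E-box was in 2 of 5 and 2 of 16. A stretch of 30 bases around the Asns element is printed to show the letters searched for. It lies at chr6:7693214-7693243 on the minus strand of GRCm38.p6, with the core in capitals, and the first base of the core is 23 bases before the start.
Asns: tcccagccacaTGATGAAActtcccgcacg
A window without these letters says nothing of an element elsewhere in the gene.

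Some markers of cell types were also in the table, where a difference by genotype is the condition of being listed. Over the table, 2012 of 3542 genes were higher in Mul1(-/-), and 16.7% passed upward and 7.43% downward. Of 6 cholangiocyte markers the table held 4, each higher in Mul1(-/-), with summed normalized counts of 1292 to 1891 in Mul1(+/+) and 4878 to 5100 in Mul1(-/-). Epcam and Spp1 passed the threshold, and Krt19 and Krt7 did not. Of 10 hepatocyte markers 2 were in the table, Apob and Hnf4a, neither past the threshold, with sums of 147515 to 240723 and 85970 to 91705. The summed counts of 2 of 7 stellate markers were 4314 to 5241 and 8482 to 28580, those of 2 of 6 endothelial markers 3352 to 3910 and 1184 to 2140, and Ptprc, the 1 of 6 lymphocyte markers in the table, had 273 to 503 and 688 to 1444. None of the 8 macrophage markers was in the table. In whole liver, fewer cells of a type and less RNA per cell cannot be told apart, and the part of cell composition in the values of the members was not tested. None of the markers in the table was at 0 in any library.

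Dividing cells use serine and folate units for nucleotides. Of 12 genes of such cells, 2 were in the table, both higher in Mul1(-/-). Over the table, 2012 of 3542 genes were higher and 16.7% passed upward. Ccnb2, a mitotic cyclin, rose from 11.8, 28.3 and 11.4 normalized counts in Mul1(+/+) to 68.7, 78.4 and 80.8 in Mul1(-/-) (log2 fold change 2.20, adjusted p = 0.00697 from limma). Cdk1 had a log2 fold change of 1.27 and did not pass (adjusted p = 0.0230). Their part in the Psat1 values was not tested.

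The genes whose pattern over the 6 libraries was most like each member were found by the root mean square difference in log2 after centring on the Mul1(+/+) mean. For Psat1 these were Cdkn2c (0.177), Mep1b (0.203) and Nme4 (0.228), which encode a cyclin-dependent kinase inhibitor, a meprin protease subunit and a mitochondrial nucleoside diphosphate kinase. Cdkn2c had normalized counts of 200, 259 and 247 in Mul1(+/+) and of 672, 1056 and 1380 in Mul1(-/-). For Shmt2 the nearest were Nt5dc3 (0.0846), Tmem184b (0.0912) and Vcp-rs (0.0926), all with log2 fold changes from −1.50 to −1.44. Aldh1l2 had no near neighbour. Its closest genes, the GABA-B receptor subunit Gabbr2 (0.628), the ion channel Hcn2 (0.663) and Dmrta1 (0.668), differed from it several times as much as the neighbours of the others did, and each shared its low value in Mul1(+/+) replicate 2. Likeness over 6 libraries, with a shared group difference in all of them, is a description.

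Transcript length moved with the direction of change across the table, and the members were read against genes of their own length. The 2849 protein-coding genes were ordered by length and divided into 10 bins of equal size, and 97.9% of the shortest bin and 21.8% of the longest were higher in Mul1(-/-). The transcripts of Psat1, Shmt2 and Aldh1l2 measure 2617, 2289 and 6027 bases. In their bins, 43.9%, 56.1% and 21.1% of genes were higher, so Psat1 and Shmt2 lay where both directions were about equally common and Aldh1l2 where most genes were lower. The 20 serine and one-carbon genes had a median length of 3589 bases, against 3035 for the protein-coding genes of the table. In the bin that holds that median (3586 to 4206 bases), 32.3% of genes were higher, against 3 of the 20. The median log2 fold change of that bin was −1.22, close to the −1.33 of the 20 genes. The part of length in these values was not tested.

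**Figure D4:**
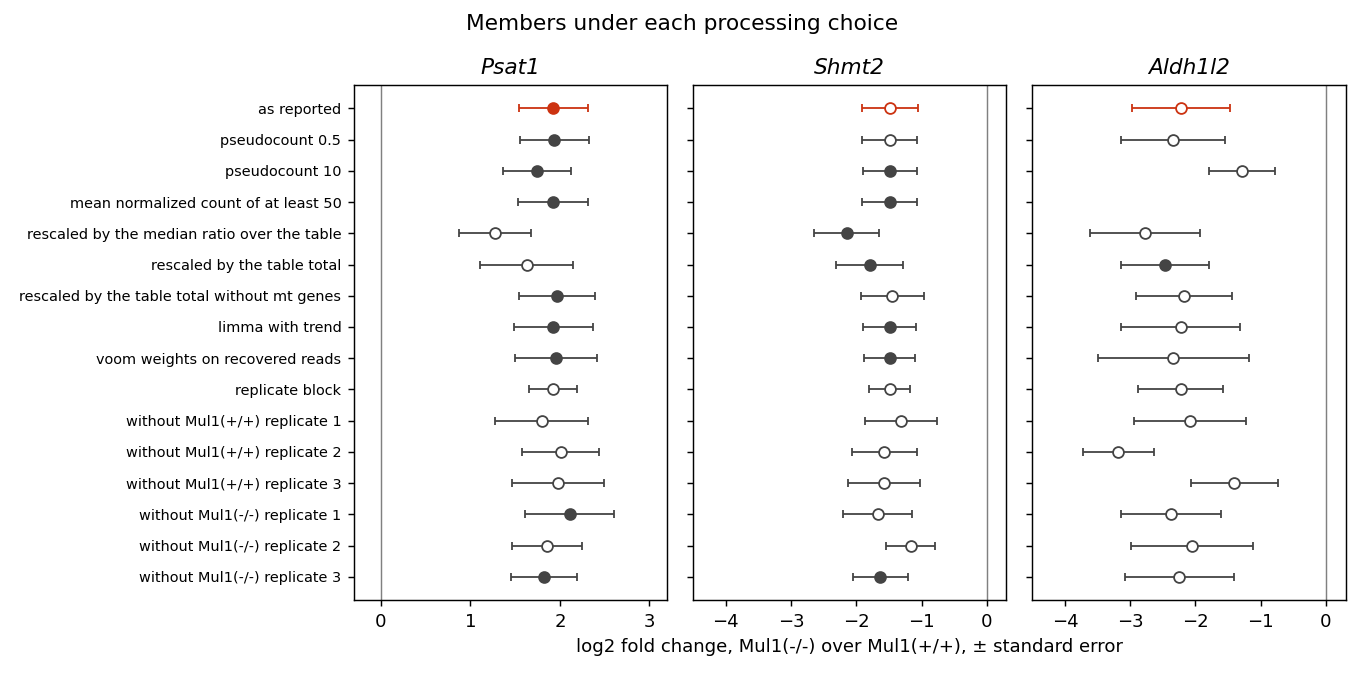
Log2 fold change of Psat1, Shmt2 and Aldh1l2 under the reported setting (red) and each alternative fit, ± the standard error from limma, with filled points where the threshold was passed. Psat1 stayed between 1.28 and 2.11, Shmt2 between −2.15 and −1.17 and Aldh1l2 between −3.18 and −1.29. No sign changed, but leaving out a library or changing the pseudocount could not turn one, because the groups of each member did not overlap.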

How the data were processed

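Liver mRNA of 3 Mul1(+/+) and 3 Mul1(-/-) mice on HFD was sequenced by GENEWIZ. The authors compared the groups with DESeq2 and deposited a table of 3542 genes. Its library values are normalized counts: the authors divided the reads of each library by a factor of its own, without pooling. Its log2 fold changes, p-values and adjusted p-values are the authors' test results and were read only to see which genes the table holds. The aligner, the build, the annotation and the strand setting are not given in the sources used here. The labels give 3 mice per group.

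Values are written with commas and with a dash for 0, and every value under 10000 (100%) gave a whole number of reads within 0.1. These reads were used for counting intervals. The deposited counts of replicates differed by more than sampling noise (chi-square per degree of freedom 240.7 to 1302). limma 3.58.1 (R 4.3.3) was fitted on log2(normalized count + 1) with genotype as the only term, all 6 libraries and no filter, with Benjamini-Hochberg adjustment over the table. Because that table is a selection made on these libraries, its adjusted p-values are not those of a whole transcriptome. The script was tested on simulated data. Differences in ratios were compared by exact permutation. Python 3.11.15, numpy 2.4.6, pandas 2.3.3 and matplotlib 3.10.9 did the rest.

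The members and the gene lists were chosen with earlier results of these data known. Named genes are the members, Mul1, every table gene of the serine synthesis, mitochondrial folate, glycine cleavage and cytosolic folate lists, genes past the threshold in the other lists, and the 3 genes most like each member. The other list genes, cell type markers and sex-biased genes that are named were picked after their values were seen. Gene positions and lengths come from GENCODE M21 (GRCm38), which held 3529 of the identifiers and lacked 13, and promoters are from RefSeq on GRCm38.p6. The alternatives were other pseudocounts, a filter on the mean, rescaled libraries, limma's trend, voom weights, the replicate number as a block, an adjusted p of 0.05, and each library left out.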

Additional observations from a re-analysis of the deposited data

How the results depend on the processing

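The direction of all 3 members was the same under every alternative run. Because the groups of each member did not overlap, leaving out a library or changing the pseudocount could not turn a sign. The trend and the replicate block left the fold changes as they were, as did the filter for Psat1 and Shmt2. Rescaling the libraries could have turned a sign and did not. At the reported threshold, Psat1 passed in 8 of 15 alternative fits (adjusted p from limma 0.00211 to 0.0308), Shmt2 in 7 of 15 (0.00555 to 0.0599) and Aldh1l2 in 1 of 14 (0.00646 to 0.0769), being removed by the filter. The looser threshold of an adjusted p under 0.05 is not among these fits, and all 3 passed it. The Psat1 call was lost at log2 fold changes of 1.28 (median ratio), 1.63 (table total) and 1.93 (replicate block). Shmt2 passed at −1.49 with a pseudocount of 10, a mean of at least 50, the trend or voom weights, at −2.15 by the median ratio, at −1.79 by the table total and at −1.63 without Mul1(-/-) replicate 3. Aldh1l2 passed at −2.47 by the table total. With an adjusted p under 0.05, Shmt2 passed at −1.49 and Aldh1l2 at −2.22. With each library left out the log2 fold changes were 1.80 to 2.11 for Psat1, −1.67 to −1.17 for Shmt2 and −3.18 to −1.40 for Aldh1l2. The ratio differences were then 3.02 to 3.78 (Psat1 to Shmt2), 3.38 to 5.19 (Psat1 to Aldh1l2) and −0.18 to 1.61 (Shmt2 to Aldh1l2), and the last turned to −0.20 with a pseudocount of 10. The causes were not tested.

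Of the members, 1 passed as reported, 2 with a pseudocount of 10, the filter, the table total, the trend or voom, 3 with an adjusted p under 0.05, and 0 to 2 with each library left out. Of the serine and one-carbon genes, 5 passed as reported, 3 with a pseudocount of 0.5, 11 with 10 or with the filter, 13 by the median ratio or with the trend, 10 by the table total, 12 with voom, 19 with an adjusted p under 0.05, and 0 to 16 with each library left out. Of all genes, 854 passed as reported, 1459 with a pseudocount of 10, 1343 by the table total, 1869 with the trend, 3380 with an adjusted p under 0.05, and 10 (without Mul1(-/-) replicate 2) to 2673 (without Mul1(-/-) replicate 3) otherwise. Rescaling moved the split of 591 higher and 263 lower to 236 and 1031 (median ratio) or 619 and 724 (table total). The filter gave 629 and 620, a pseudocount of 10 gave 779 and 680, the trend 964 and 905, and voom 596 and 649.

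The labels do not say whether libraries of the same replicate number share more than that number. The deviations of same-numbered libraries correlated at 0.02, 0.35 and 0.05. The value for replicate 2 was the highest of all pairs, but not every library correlated best with its own number. With the replicate block, 0 genes passed by limma, against 3314 of the table, 20 of the lists and 3 members with an unadjusted p under 0.05, and 1245 of the table past the threshold with voom weights without the block. The adjusted p was then 0.0159 for Psat1, 0.0176 for Shmt2 and 0.0271 for Aldh1l2. Voom and the alternatives of the ratios were chosen after seeing the data. The edgeR and DESeq2 alternatives were not run, although whole reads were recovered. Depth limits Aldh1l2, with 9 reads in Mul1(-/-), and not Shmt2.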
